A study of Mus musculus with 12 samples.

Results

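The genes described here are the abundant protein-coding genes of mouse chromosome 19, taken as a group because their RNA level was lower in *Filip1l* KD tumors than in CTL tumors. Members were the protein-coding genes of chromosome 19 (build GRCm38) that averaged 1000 normalized counts or more over the 6 CTL tumors, which 256 of the 498 listed protein-coding genes of the chromosome reached. Genes whose symbols begin with Slc, Rpl, Rps, Nduf, Atp5, Cts, Rab or Arhg, and *Scd1*, *Scd2*, *Fosl1*, *Fas* and *Aldh1a1*, were set aside by name, which removed 9 genes. This left 247 members of 15687 listed genes. The CTL levels chose the members and the chromosome was chosen with its shift known, so their count and median are descriptions without a test. The word dosage is used of RNA only, because DNA copy number was not measured.

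All 12 tumors were grown from mTc11, a mouse lung cancer line. In the CTL group the cells carried a control shRNA (labelled shControl, 6 tumors), and in the *Filip1l* KD group an shRNA against *Filip1l*, in mixed clones selected with puromycin (6 tumors). In both groups 1000000 cells in Matrigel were placed under the skin of 8-week-old male C57BL6/J mice of unmodified genotype, and each tumor was taken at day 24 and frozen. A normalized count is the number of reads on a gene divided by the size factor of its tumor. It compares 1 gene between tumors and is not corrected for gene length. Recovered reads on listed genes came to 17834745 to 29502069 per CTL tumor and 25460564 to 32419578 per *Filip1l* KD tumor. *Filip1l* itself, on chromosome 16, lay at 1983 to 2542 normalized counts across the CTL tumors and at 1670.1 to 2184 across the *Filip1l* KD tumors, with a log2 fold change of -0.26 (limma adjusted p = 0.00998), so the groups overlapped for the targeted RNA. For the protein, the paper reports lower FILIP1L in the knockdown clones by immunoblot and in their tumors by immunohistochemistry.

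A cell that has fewer copies of a chromosome usually makes less RNA from most of its genes, and tumor cell lines commonly gain or lose chromosomes and differ in this between clones. Individual genes can depart from such a shared shift where their own regulation is strong. Many proteins work in complexes whose subunits are coded on different chromosomes, and subunits made in excess of their partners are often degraded. Chromosome 19, the smallest mouse autosome, holds the interferon-induced Ifit cluster and subunits of cohesin, splicing, translation and transcription complexes.

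The members were lower by a similar amount in every *Filip1l* KD tumor. The median member lay between -0.04 and 0.02 (log2, relative to the CTL mean of each gene) in the CTL tumors and between -0.43 and -0.37 in the *Filip1l* KD tumors, so the groups did not overlap. Between 214 and 228 of the 247 members lay below their CTL median in a *Filip1l* KD tumor, against 87 to 174 in a CTL tumor. The median log2 fold change of the members was -0.40, a change of -24.3%, and the middle of the distribution ran from -0.57 to -0.23 between the quartiles. Equally abundant protein-coding genes on chromosomes other than 8, 14 and 19 (4672 genes by the same rule) had a median of -0.02, and their distance between quartiles, 0.34, was the same as that of the members. Chromosomes 8 and 14, left out of this set, had shifts of their own (medians of -0.21 and 0.38). Medians of the remaining chromosomes are not given singly. In these bulk tumors a smaller share of a cell type and less RNA per cell cannot be told apart. An effect of the knockdown and other differences between the transduced cells of the groups cannot be told apart either.

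**Figure D1:**
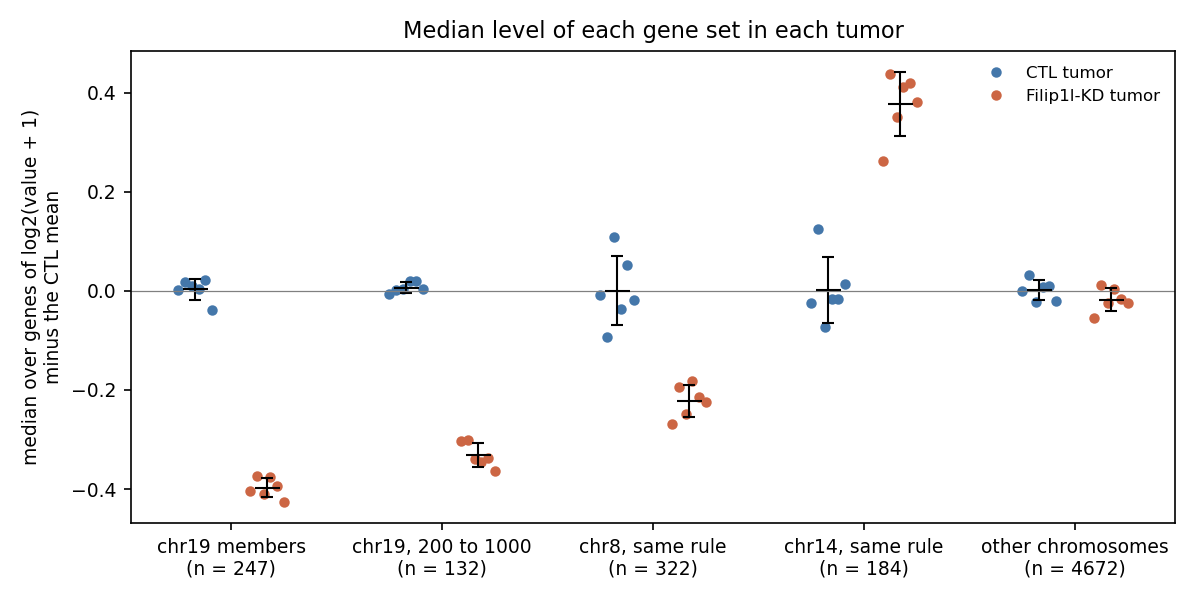
Median over genes of log2(value + 1) minus the CTL mean of the gene (y axis, log2 units) for 5 gene sets (x axis) in each of the 6 CTL and 6 *Filip1l* KD tumors; points are tumors and bars are the mean ± SD. The chromosome 19 members lie between -0.43 and -0.37 in all *Filip1l* KD tumors, and the same rule gives lower medians on chromosome 8 and higher medians on chromosome 14.

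Of the 247 members, 222 had a negative log2 fold change. By limma on log2(normalized count + 1), 191 members (77.3%) were lower in *Filip1l* KD tumors at an adjusted p under 0.05, where 20.7% of all genes tested were lower. Only 10 members were higher (background 21.1%), and 46 passed in neither direction. For 156 members the 6 *Filip1l* KD values all lay below the 6 CTL values (background 10.9%), and for 4 members they all lay above (background 10.6%). Most of the shifts were small: 10 members were called with a decrease of more than 2-fold (background 3.97%) and 1 with such an increase (background 6.2%). Among other chromosomes the same rule gave 322 genes with a median of -0.21 on chromosome 8 and 184 genes with a median of 0.38 on chromosome 14.

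**Figure D2:**
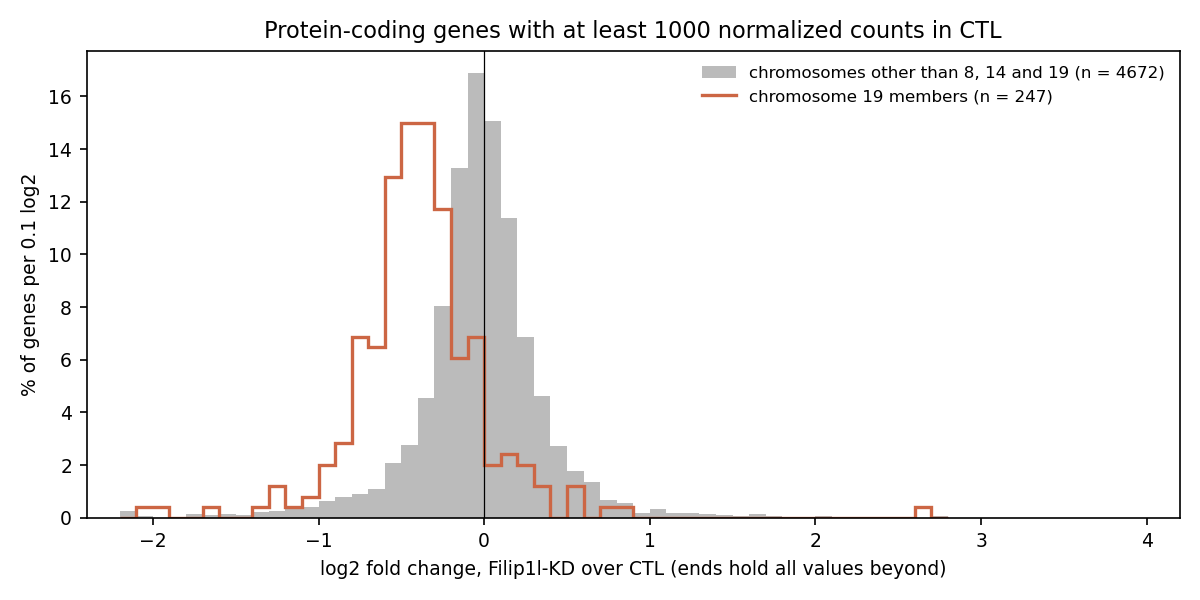
Share of genes (y axis, % per 0.1 log2) by log2 fold change, *Filip1l* KD over CTL (x axis), for the 247 chromosome 19 members (line) and 4672 equally abundant genes on other chromosomes (filled). The members' distribution is centred at -0.40 and the other at -0.02, with tails on both sides.

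The shift did not begin at the abundance threshold. Chromosome 19 protein-coding genes with a CTL mean of 200 to 1000 normalized counts (132 genes) had a median log2 fold change of -0.34, those from 50 to 200 (59 genes) -0.11, and those under 50 (51 genes) -0.05. The 33 listed genes of the chromosome that do not code for protein had a median of -0.30. Just above the threshold stood *Ubtd1*, *Cep55* and *Mrpl11*, with CTL means from 1019 to 1024 normalized counts and log2 fold changes of -0.63, -0.39 and -0.41. Just below it stood *Fam45a*, *Ric1* and *Stambpl1*, with CTL means from 979 to 994 and log2 fold changes of -0.38, -0.36 and -0.31. Because the members were chosen on CTL levels, the median was also taken over genes with a *Filip1l* KD mean of at least 1000, and was -0.34 over 205 genes.

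To find genes that did not follow the chromosome, the median shift of chromosome 19 in each tumor, the middle value of its 458 genes that average 50 normalized counts or more (mean -0.35 in the *Filip1l* KD tumors), was subtracted and the fit was repeated on all genes. By this measure 50 members (20.2%) lay above the chromosome shift, 70 (28.3%) lay below it and 127 were not called apart from it. The members' own median was -0.40, so the median member lay below this reference. Across 17 other settings, among them other references and member rules of different size, 29 to 64 lay above and 44 to 83 below. Over all genes tested 20.9% lay above and 18.7% below the shift of their chromosome. For equally abundant genes on chromosomes other than 8, 14 and 19 these shares were 21.0% and 24.8%. The share of members above the shift was thus near that of other genes. Of the 50 above, 10 were higher in *Filip1l* KD tumors outright, 35 were not called in the plain comparison and 5 were still lower. The members above, not called apart from and below the shift were similar in abundance, with median CTL means of 2473, 2252 and 2640.3 normalized counts. Their median transcript GC content was 49.8%, 51.2% and 53.0%, with the members below the shift highest.

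*Gldc*, the decarboxylase of the mitochondrial glycine cleavage system, was among the members with the lowest log2 fold changes (chr19:30098447-30175429, - strand). Its values lay between 1564 and 1969 (median 1765) normalized counts across the CTL tumors and between 336 and 582 (median 459) across the *Filip1l* KD tumors, with no overlap. The log2 fold change was -1.97 (SE 0.12, limma adjusted p = 4.38e-08). *Uhrf2*, a ubiquitin ligase gene that ends a few kilobases away, also fell, with a log2 fold change of -0.82. *Il33*, an alarmin cytokine gene on the other side of *Uhrf2*, was not called in the plain comparison, with a log2 fold change of 0.21 and overlapping groups of 1715 to 2854 and 2096 to 3638 normalized counts.

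*Rbp4*, which codes for the serum retinol carrier, lay between 1479 and 1923 (median 1699) normalized counts across the CTL tumors and between 295 and 951 (median 550.2) across the *Filip1l* KD tumors. Its log2 fold change was -1.60 (SE 0.22, limma adjusted p = 4.39e-05), and the groups did not overlap. *Kank1*, a regulator of actin at focal adhesions, fell from 5308 ± 968 (CTL) to 2105 ± 388 (*Filip1l* KD) normalized counts (mean ± SD, n = 6 tumors a group), and its log2 fold change was -1.33. *Clcf1*, a cytokine of the interleukin-6 family, fell from 1524 ± 176 (CTL) to 661 ± 143 (*Filip1l* KD) normalized counts (mean ± SD, n = 6 tumors a group), and its log2 fold change was -1.23. *Hhex*, a homeobox transcription factor, went from 4749 ± 672 (CTL) to 2279.7 ± 179 (*Filip1l* KD) normalized counts (mean ± SD, n = 6 tumors a group), and its log2 fold change was -1.05.

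Further members beyond a 2-fold decrease were *2700081O15Rik* (-1.27), *Tmem151a* (-1.27), *D030056L22Rik* (-1.13) and *Tmem132a* (-1.01), all as log2 fold changes. In each of the 10 members with the lowest log2 fold change the groups were fully separated, which their choice by fold change largely sets. *2700081O15Rik* shares 4 annotated bases with *Rtn3* and *Tmem132a* shares 1541 with *Slc15a3*, on opposite strands, and the counting is not stated to use strand, so reads in the shared bases cannot be told apart.

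**Figure D3:**
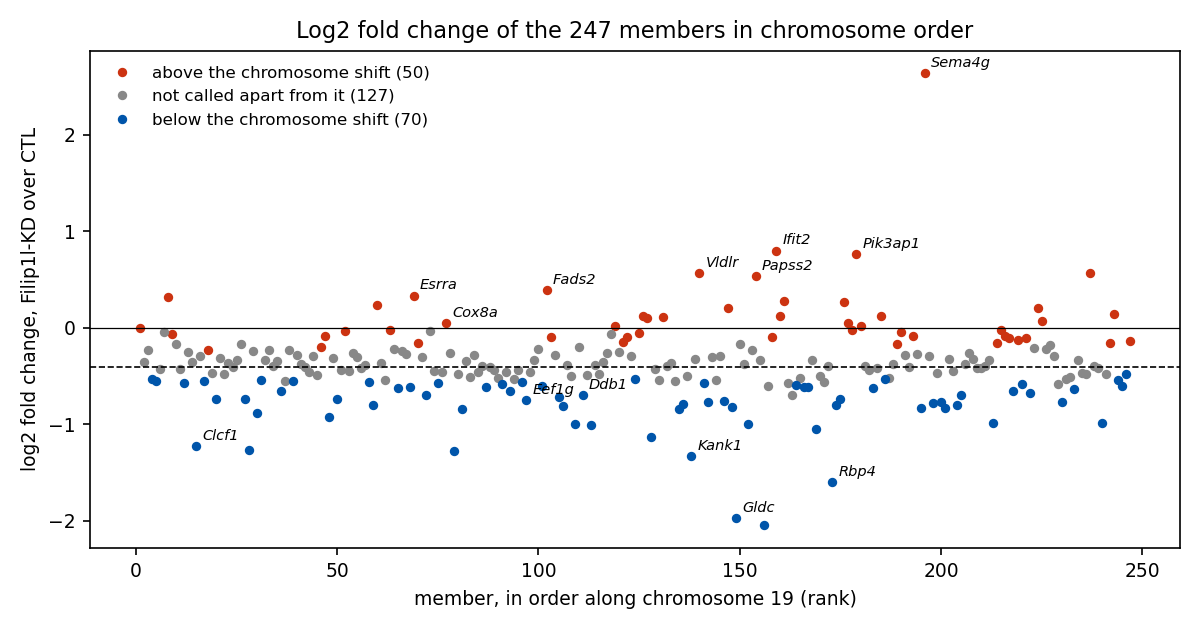
Log2 fold change, *Filip1l* KD over CTL (y axis), of the 247 members in their order along chromosome 19 (x axis, rank); color gives members above (50), below (70) or not called apart from (127) the chromosome shift, and the dashed line is the median, -0.40. Most members lie below zero along the whole chromosome, with *Sema4g* at 2.64 and *Gldc* at -1.97.

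The highest log2 fold change was that of *Sema4g*, a transmembrane semaphorin and guidance ligand (chr19:44989101-45003397, + strand). It lay between 958 and 1271 (median 1036) normalized counts across the CTL tumors and between 5106 and 8142 (median 7002) across the *Filip1l* KD tumors, so that every *Filip1l* KD tumor lay far above every CTL tumor. The log2 fold change was 2.64 (SE 0.11, limma adjusted p = 1.94e-09), a level 6.23 times that of the CTL tumors. On both sides of it members were lower. *Slf2*, a DNA repair adaptor that ends just before *Sema4g* begins, had a log2 fold change of -0.83, *Mrpl43*, a mitochondrial ribosome subunit, -0.29, and *Twnk*, the mitochondrial DNA helicase, -0.78. Further along, *Lzts2* had -0.47, *Sfxn3*, a mitochondrial serine carrier, -0.77, and *Btrc*, the substrate receptor of an SCF ubiquitin ligase, -0.83. *Mrpl43* and *Twnk* share 780 annotated bases on opposite strands.

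The promoter windows of *Sema4g* and of *Sfxn3*, a neighbour that fell, are shown because these close neighbours moved in opposite directions. Each window runs from 250 bases before to 50 bases after the annotated start and is given 5′ to 3′ on the strand of the gene, from RefSeq on GRCm38.p6. Capitals mark the GC box GGGCGG on either strand, with 4 matches in *Sema4g* (chr19:44989094-44989393, + strand) and 2 in *Sfxn3* (chr19:45047326-45047625, + strand). Windows of nearer neighbours that fell, not shown, ran from 0 matches in a window of *Twnk* to 5 in a window of *Lzts2*.
Sema4g: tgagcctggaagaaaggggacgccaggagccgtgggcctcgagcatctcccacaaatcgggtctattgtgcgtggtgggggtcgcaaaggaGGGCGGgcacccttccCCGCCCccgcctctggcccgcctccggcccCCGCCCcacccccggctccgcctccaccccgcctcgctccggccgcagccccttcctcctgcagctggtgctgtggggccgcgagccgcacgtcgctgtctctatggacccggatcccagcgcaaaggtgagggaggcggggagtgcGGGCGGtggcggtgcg
Sfxn3: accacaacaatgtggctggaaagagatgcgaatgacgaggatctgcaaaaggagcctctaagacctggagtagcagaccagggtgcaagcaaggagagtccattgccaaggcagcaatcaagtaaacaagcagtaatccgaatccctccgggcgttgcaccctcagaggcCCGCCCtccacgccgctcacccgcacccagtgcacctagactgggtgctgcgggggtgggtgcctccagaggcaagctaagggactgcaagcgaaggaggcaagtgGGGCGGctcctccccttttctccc
Of 284 windows found for 208 of the 247 members, 68.3% held a GC box, against 35.7% of the 32851 windows of all genes. The windows of all genes were not matched to the members for abundance or gene type, and no matched set was compared. By gene, a GC box lay in 28 of 40 members above the chromosome shift, 83 of 110 not called apart from it and 42 of 58 below it. CCAAT lay in 20 of 40, 56 of 110 and 28 of 58. A match is a description of the letters only.

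The interferon-induced Ifit genes, whose products bind viral RNA, stand together, and 3 of the 6 listed are members. All 3 lay above the chromosome shift. *Ifit2* (chr19:34550694-34576419, + strand) lay between 993 and 1358 (median 1149) normalized counts across the CTL tumors and between 1473 and 3139 (median 1926) across the *Filip1l* KD tumors, with no overlap and a log2 fold change of 0.80 (SE 0.15, limma adjusted p = 0.000616). The groups overlapped for *Ifit3*, which went from 2437 ± 549.6 (CTL) to 2623 ± 485 (*Filip1l* KD) normalized counts (mean ± SD, n = 6 tumors a group), and for *Ifit1*, which went from 1661 ± 301 (CTL) to 2017 ± 372 (*Filip1l* KD) normalized counts (mean ± SD, n = 6 tumors a group). Neither was called in the plain comparison, with log2 fold changes of 0.12 and 0.28 (limma adjusted p = 0.561 and 0.101), and they lay above the chromosome shift by 0.48 and 0.64 on the log2 scale. Without CTL replicate 5, *Ifit1* was called higher (0.35). Once trends with GC content and length were taken out, the log2 fold change of *Ifit3* was -0.0036. The 3 listed genes of the cluster under the abundance threshold were not alike. *Ifit3b* had means of 622 (CTL) and 519.6 (*Filip1l* KD) normalized counts and was not called (-0.24, limma adjusted p = 0.232). *Ifit1bl1* rose from a mean of 360.1 to 1174 (1.72, limma adjusted p = 0.000113) and *Ifit1bl2*, a low-level gene, from 7.72 to 23.4 normalized counts (1.35, limma adjusted p = 0.0145). These genes are similar in sequence, and reads shared between them would not be counted as unique hits. Farther out on either side of the cluster, *Acta2*, the smooth muscle actin, had a log2 fold change of -0.61 and *Kif20b*, a mitotic kinesin, -0.57. Genes under the abundance threshold that lie between these and the cluster ran from 0.11 for *Ch25h*, not called, to -2.97 for *Pank1*. *Lipa*, the lysosomal acid lipase gene next to *Ifit2*, had -0.09 and was not called.

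The windows of *Ifit1* and *Ifit3* are shown because both hold the core of the interferon-stimulated response element, the sequence bound by the ISGF3 complex and interferon regulatory factors. Capitals mark GAAA, any 2 bases and GAAA in a row, on either strand, with 2 matches in *Ifit3* (chr19:34583279-34583578, + strand) and 2 in *Ifit1* (chr19:34640639-34640938, + strand).
Ifit3: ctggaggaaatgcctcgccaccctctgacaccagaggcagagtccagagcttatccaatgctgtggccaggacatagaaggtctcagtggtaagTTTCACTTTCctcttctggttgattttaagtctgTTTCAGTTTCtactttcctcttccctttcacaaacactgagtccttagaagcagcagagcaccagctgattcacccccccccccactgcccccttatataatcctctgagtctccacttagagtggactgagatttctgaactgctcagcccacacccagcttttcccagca
Ifit1: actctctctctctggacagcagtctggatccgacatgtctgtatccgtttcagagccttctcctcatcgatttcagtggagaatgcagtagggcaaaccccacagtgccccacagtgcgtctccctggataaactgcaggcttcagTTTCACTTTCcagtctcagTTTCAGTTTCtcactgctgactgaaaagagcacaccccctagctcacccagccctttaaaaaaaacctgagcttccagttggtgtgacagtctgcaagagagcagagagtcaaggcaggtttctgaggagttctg
Windows of 8 members held this motif (2.82% of member windows, against 3.44% of all windows): *Ifit1*, *Ifit3*, *Vldlr*, *Tcirg1*, *Kat5*, *Ccdc186*, *Eif3a* and *Btaf1*. They were not alike in their change, which ran from -0.52 for *Btaf1* to 0.57 for *Vldlr* on the log2 scale. *Ifit2* was not among these 8 members, and sequence outside the windows was not searched.

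Of the other members that rose, *Pik3ap1*, an adaptor that links receptors to PI3-kinase, lay between 1342 and 2032 (median 1781) normalized counts across the CTL tumors and between 2342 and 3111 (median 2971) across the *Filip1l* KD tumors, without overlap. Its log2 fold change was 0.76 (SE 0.11, limma adjusted p = 7.38e-05). *Papss2*, which makes the sulfate donor PAPS, also had separated groups, rising from 1384 ± 83.3 (CTL) to 2026 ± 308 (*Filip1l* KD) normalized counts (mean ± SD, n = 6 tumors a group). Its log2 fold change was 0.54 (limma adjusted p = 0.000304).

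*Vldlr*, a lipoprotein receptor, rose by a log2 fold change of 0.57 (limma adjusted p = 0.0149), with CTL replicate 3 at 856 normalized counts, far below the other CTL tumors (1604 to 1949). *Fads2*, the delta-6 fatty acid desaturase, rose by 0.39 (limma adjusted p = 0.00409). In the same desaturase cluster *Fads1*, the delta-5 enzyme, was not called (-0.10) and *Fads3* fell (-0.61, limma adjusted p = 4.85e-07), so that adjacent genes of the family lay on both sides of the chromosome shift. *Esrra*, an orphan nuclear receptor of mitochondrial genes, had a log2 fold change of 0.33 (limma adjusted p = 0.00462), and shares 73 annotated bases with *Trmt112* on the opposite strand. *Pdlim1*, a PDZ and LIM scaffold of actin, rose by 0.27 (limma adjusted p = 0.0181). *Unc93b1*, a trafficking partner of endosomal Toll-like receptors, had 0.32 (limma adjusted p = 0.0425), a call that was lost in 11 of 23 alternative fits. *Batf2*, an interferon-induced transcription factor, was not called in the plain comparison (0.24, limma adjusted p = 0.353) and lay above the chromosome shift by 0.59.

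**Figure D4:**
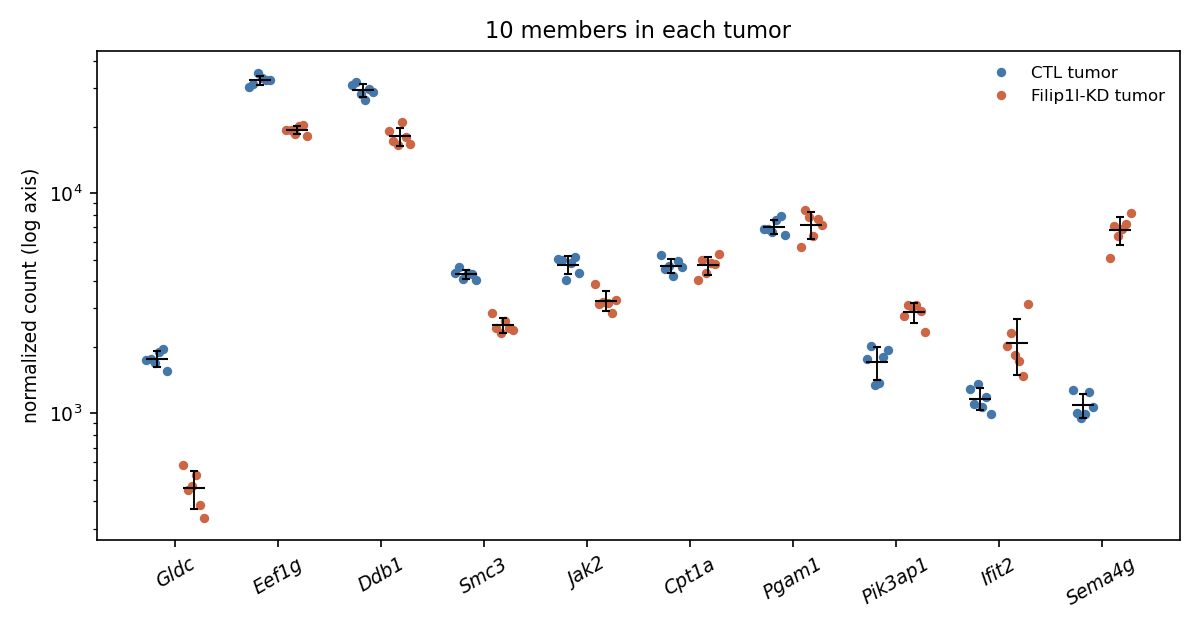
Normalized counts (y axis, log scale) of 10 members in each of the 6 CTL and 6 *Filip1l* KD tumors; points are tumors and bars are the mean ± SD. *Gldc*, *Eef1g*, *Ddb1*, *Smc3* and *Jak2* are separated downward, *Cpt1a* and *Pgam1* overlap, and *Pik3ap1*, *Ifit2* and *Sema4g* are separated upward.

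The role groups were assigned with earlier results known, and each gene stands in 1 group only. Over all genes tested 20.7% were lower, 21.1% higher, 20.9% above and 18.7% below the shift of their chromosome, and for 10.9% the groups were separated downward. Among the members of mitochondria and metabolism more lay above the chromosome shift than below it. Of 30 such members 17 lay above the chromosome shift (56.7%) and 5 below (16.7%, near the share of all genes), 13 were lower, 1 was higher, and their median log2 fold change was -0.12. Counts by role group, here and below, were made with trends of GC content and length left in. They were not repeated with these trends taken out. *Cpt1a*, the carnitine palmitoyltransferase of the liver type, lay between 4191 and 5221 (median 4648) normalized counts across the CTL tumors and between 4018 and 5272 (median 4800.1) across the *Filip1l* KD tumors, a log2 fold change of -0.00. *Pgam1*, a glycolytic mutase, had 0.02, *Aldh18a1*, a proline synthesis enzyme, 0.05, and *Got1*, the cytosolic aspartate aminotransferase, -0.17, of which only the last was called in the plain comparison. All 4 lay above the chromosome shift. *Acsl5*, an acyl-CoA synthetase, fell from 13514 ± 1209 (CTL) to 8668 ± 460.2 (*Filip1l* KD) normalized counts (mean ± SD, n = 6 tumors a group), and its log2 fold change was -0.64. *Fth1*, the ferritin heavy chain, was not called, with groups that overlapped and a log2 fold change of -0.22. *Gsto1*, a glutathione transferase, had 0.21 and was not called. Without *Filip1l* KD replicate 1 both were called, *Fth1* lower (-0.27) and *Gsto1* higher (0.33), and once trends with GC content and length were taken out *Fth1* had -0.32, called lower, and *Gsto1* 0.013. *Prdx5*, a peroxiredoxin, had -0.28 (limma adjusted p = 0.0376), a call lost in 10 of 23 alternative fits. Reads of *Fth1*, *Eef1g* and *Cfl1*, which have processed pseudogenes, and of *Gstp1* next to its near copy *Gstp2* may be undercounted where only unique hits were kept.

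Among 33 members of chromatin and transcription, 29 were lower and 1 (*Esrra*) was higher, with a median log2 fold change of -0.40. *Hnrnpul2*, an RNA-binding protein, had -0.41, *Mta2*, a subunit of the NuRD deacetylase, -0.44, and *Kdm2a*, a histone demethylase, -0.47. *Zfp91*, a zinc finger ubiquitin ligase, was lower by less (-0.15) and lay above the chromosome shift. Its call of lower was lost in 3 of 23 alternative fits, without CTL replicate 2, without *Filip1l* KD replicate 5 (-0.12) and once trends with GC content and length were taken out (-0.051). All 12 members of RNA processing and export were lower with separated groups, with a median of -0.52, among them *Sf3b2* (-0.54), *Prpf19* (-0.47) and *Sf1* (-0.24). The 9 members assigned to ubiquitin and protein turnover were lower as well with separated groups, with a median of -0.60. The ubiquitin ligase gene *Syvn1*, assigned to no role group, was lower with groups that overlapped (-0.31), and *Zfp91* stands under chromatin. *Ddb1*, the adaptor of CUL4 ubiquitin ligases, fell from 29400.2 ± 1996 (CTL) to 18118 ± 1716 (*Filip1l* KD) normalized counts (mean ± SD, n = 6 tumors a group) and shares 328 annotated bases with *Tkfc* on the opposite strand, and the deubiquitinase *Otub1* had a log2 fold change of -0.46.

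In translation and protein folding 11 of 12 members were lower, with a median log2 fold change of -0.45. *Eef1g*, a subunit of the elongation factor that reloads eEF1A, was one of the members with the highest normalized counts. It lay between 30444 and 35197 (median 32614) normalized counts across the CTL tumors and between 18216 and 20324 (median 19396) across the *Filip1l* KD tumors, a log2 fold change of -0.75 (SE 0.05, limma adjusted p = 2.3e-07), and lay below the chromosome shift. *Eif3a* had -0.48 and *Stip1*, a co-chaperone between HSP70 and HSP90, -0.57. Of 10 members of DNA replication, repair and mitosis 9 were lower (median -0.42), with *Smc3* at -0.77 and *Incenp* at -0.34, and *Cdk2ap2* was not called (-0.16). It was called lower once trends with GC content and length were taken out (-0.31) and when tumors were rescaled to the same total, and had -0.10 without *Filip1l* KD replicate 1.

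Of 28 members of the cytoskeleton, adhesion and motility 22 were lower and 1 was higher (median -0.37). By normalized count, uncorrected for length, *Ahnak*, a giant scaffold protein, was the highest of all members and lay between 35155 and 48905 (median 43451) normalized counts across the CTL tumors and between 25275 and 35312 (median 31645) across the *Filip1l* KD tumors, with groups that overlapped, and its log2 fold change was -0.46 (limma adjusted p = 0.00189). *Cfl1*, the actin-severing cofilin, had -0.28, a call lost without CTL replicate 4. *Ltbp3*, which binds latent TGF-beta, had -0.92 and *Myof*, a membrane repair protein, -0.56. In the endoplasmic reticulum, Golgi and vesicle traffic 26 of 33 members were lower and 3 higher (median -0.37). *Tm9sf3*, a Golgi membrane protein, showed no difference beyond its spread, with a log2 fold change of -0.03 whose sign changed once trends with GC content and length were taken out (0.14) and when any of 4 tumors was left out. *Ganab* had -0.46 and *Rtn3* -0.48. *Lrp5*, a Wnt co-receptor of the cell surface that was assigned to this group, had -0.23, and lost its call once trends with GC content and length were taken out (-0.12).

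Of 22 members in kinases, phosphatases and signalling 17 were lower and 2 higher (median -0.39). *Ppp1ca*, a catalytic subunit of protein phosphatase 1, had -0.36, *Plcb3*, a phospholipase, -0.30, and *Ppp1r14b*, a phosphatase inhibitor, -0.70. *Jak2*, the kinase of many cytokine receptors, lay between 4027 and 5161 (median 4902) normalized counts across the CTL tumors and between 2849.9 and 3881 (median 3178) across the *Filip1l* KD tumors, without overlap. Its log2 fold change was -0.54 (SE 0.08, limma adjusted p = 8.39e-05), and it was not called apart from the chromosome shift (-0.18, limma adjusted p = 0.0766). Of 7 immune and interferon members 1 was lower, *Anxa1* (-0.42), and 1 higher, *Ifit2*, while 5 lay above the chromosome shift. *Mpeg1*, a pore-forming protein of phagocytes, had -0.06, whose sign changed when *Filip1l* KD replicate 4 or 5 was left out and once trends with GC content and length were taken out. The remaining 51 members were given no role group; 42 were lower, with a median of -0.47, among them *Fau*, which codes for ribosomal protein S30 (-0.39), the transcription factor *Myrf* (-0.72) and *Sfr1* (-0.68).

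The decrease ran along the whole chromosome. In windows of 10 megabases from 0 to 70, the number of members was 100, 28, 19, 28, 49, 20 and 3, and their median log2 fold changes were -0.41, -0.33, -0.50, -0.57, -0.34, -0.44 and -0.48. Lower calls numbered 85, 18, 16, 22, 33, 15 and 2. The longest run of neighbouring members called lower held 22 members, and the longest run without such a call held 5. The longest run of negative log2 fold changes held 51 members and of positive ones 3. Neighbouring members differed by a median of 0.27 on the log2 scale, and 65 members overlap another listed gene. The window with the lowest median, from 30 to 40 megabases, also holds *Ifit2*, which rose.

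Members that are subunits of complexes were compared with their partners coded on other chromosomes. The partners include paralogs that can stand in the member's place, such as *Ppp1cb* and *Ppp1cc* for *Ppp1ca* and *Smarca4* for *Smarca2*. The comparison is therefore not one of fixed subunit ratios. In 32 complexes and small pathways with at least 1 member, 32 of the 35 members were lower by limma and 3, *Chuk*, *Cox8a* and *Fth1*, were not called (median log2 fold change -0.44). Of the 168 partners 45 were lower (26.8%), 29 higher (17.3%) and 94 not called, with a median of -0.02, and these shares lay near those of all genes tested (20.7% lower and 21.1% higher). Partners on chromosome 8 (15 genes, 9 lower) had a median of -0.25 and those on chromosome 14 (4 genes, all higher) 0.53. Without these chromosomes 36 of 149 were lower and 25 higher, with a median of -0.0058. The median partner lay above the member in 31 of 32 complexes, with adducin the exception, a direction that the choice of chromosome largely set.

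For each tumor the mean log2 level of the partners was then subtracted from that of the members. This difference, which does not depend on the scaling of the tumor, was lower in every *Filip1l* KD tumor than in every CTL tumor for 25 complexes and overlapped in the other 7. Its median change over the 32 was -0.39, with quartiles of -0.51 and -0.34. The members came from a chromosome known to be lower, so the direction of this difference was largely set beforehand and is a description. The 7 with overlap were ferritin, glucosidase II, the cleavage factor CFIm, adducin, the mRNA export receptor, erlin and the SHOC2 phosphatase complex.

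**Figure D5:**
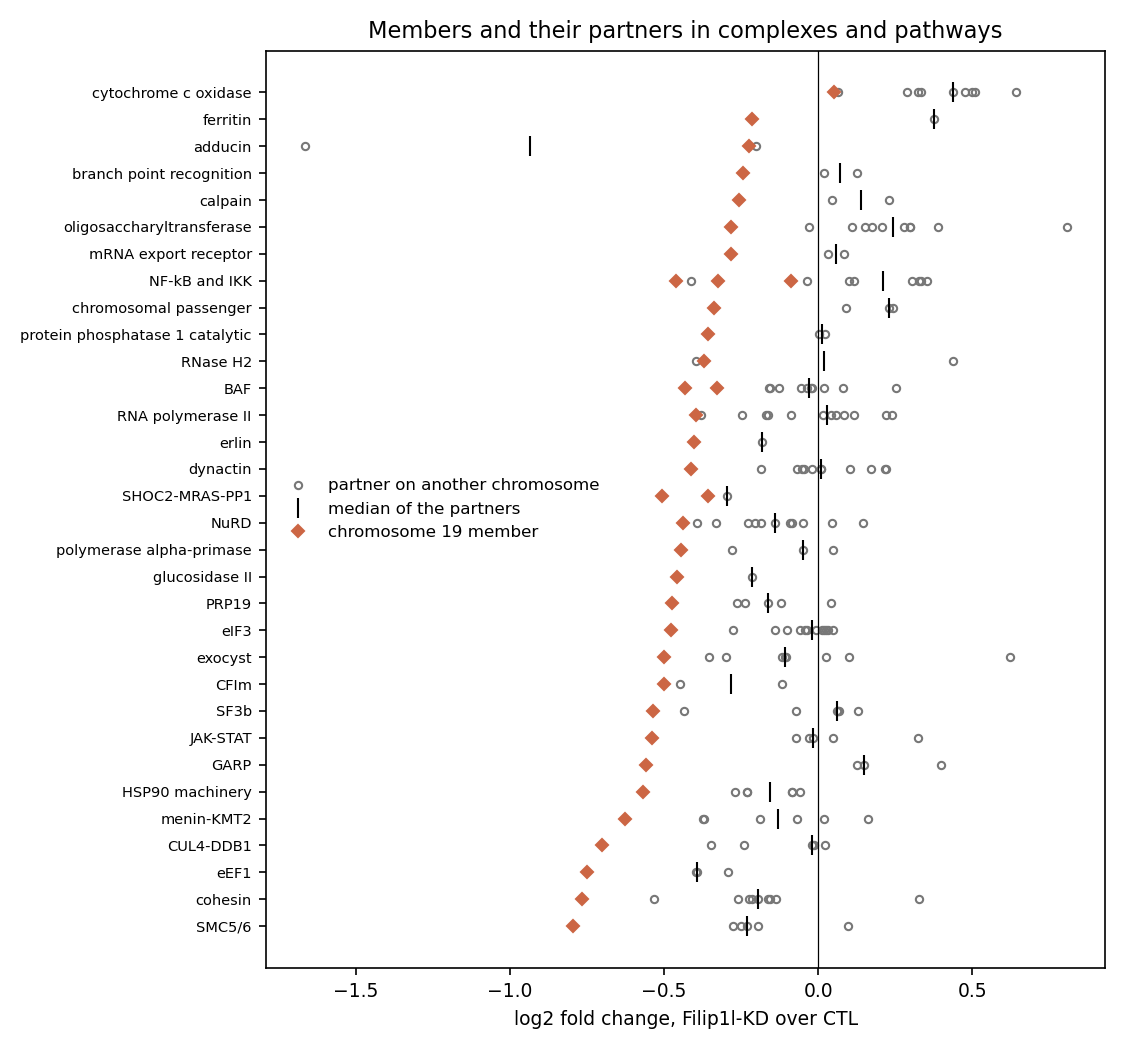
Log2 fold change, *Filip1l* KD over CTL (x axis), of chromosome 19 members (diamonds) and of their partners on other chromosomes (circles; the bar is the partners' median) in 32 complexes and pathways (y axis), ordered by the members' median. The partners' median lies to the right of the member in all but adducin.

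Cohesin, which holds sister chromatids together and extrudes loops, showed the difference in its core ring. *Smc3* lay between 4048 and 4603 (median 4319) normalized counts across the CTL tumors and between 2329 and 2853 (median 2451) across the *Filip1l* KD tumors, a log2 fold change of -0.77 (SE 0.06, limma adjusted p = 2.53e-07). Its ring partner *Smc1a* had -0.19 and *Rad21* -0.16, and the median of 9 partners was -0.19, with *Pds5b* at -0.53 and *Wapl*, on chromosome 14, at 0.33. In SMC5/6, a related complex of DNA repair, *Smc5* had -0.79 and *Smc6* -0.20.

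In translation initiation, *Eif3a* had -0.48 while the 12 other subunits of eIF3 ran from -0.28 to 0.05 (median -0.02), 2 of them lower. In SF3b, the branch point complex of the spliceosome, *Sf3b2* had -0.54, and of 6 partners only *Sf3b3*, on chromosome 8, was lower (-0.44), with a partner median of 0.06. For eEF1 the partners fell too, by less than *Eef1g*: *Eef1a1* and *Eef1b2* both had -0.39 and *Eef1d* -0.29. *Ddb1* had -0.70 and its 5 partners a median of -0.02, with the scaffold *Cul4a*, on chromosome 8, at -0.35. *Polr2g*, a stalk subunit of RNA polymerase II, had -0.40, and 12 other genes listed with it, among them *Polr2m*, a median of 0.03. *Vps51* of the GARP tethering complex had -0.56, and *Vps52*, *Vps53* and *Vps54* had 0.13, 0.40 and 0.15, of which *Vps53* was called.

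In NF-kB signalling 2 of 3 members fell and most partners rose. The transcription factor subunits *Rela* and *Nfkb2* fell (-0.46 and -0.32) and the kinase *Chuk* was not called (-0.09). Of 8 partners 5 rose, *Nfkb1* (0.12), *Relb* (0.33) and the inhibitors *Nfkbia* (0.35), *Nfkbib* (0.33) and *Nfkbie* (0.31), and *Ikbkg*, on chromosome X, fell (-0.41), while 2 were not called. The inhibitor genes are known targets of NF-kB. *Rela* lay between 4174 and 4719.8 (median 4415) normalized counts across the CTL tumors and between 2949.5 and 3436 (median 3298) across the *Filip1l* KD tumors, without overlap.

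In cytochrome c oxidase, the last enzyme of the respiratory chain, *Cox8a* was level while its partners rose. *Cox8a* went from 5016 ± 783 (CTL) to 5206 ± 861 (*Filip1l* KD) normalized counts (mean ± SD, n = 6 tumors a group), and its log2 fold change was 0.05 (limma adjusted p = 0.766), which became -0.16 once trends with GC content and length were taken out. With these trends left in, 7 of its 9 partners rose, with a median of 0.44 and *Cox6a1* at 0.64. The difference of *Cox8a* from its partners, also with the trends left in, lay between 0.80 and 0.97 in CTL tumors and between 0.46 and 0.63 in *Filip1l* KD tumors. The oligosaccharyltransferase of the endoplasmic reticulum had a like pattern, in that *Tmem258* fell (-0.28, limma adjusted p = 0.0327, lost in 6 of 23 alternative fits) while 6 of 10 partners rose (median 0.24), such as *Rpn1* (0.39) and, on chromosome 14, *Dad1* (0.81). For ferritin, *Fth1* was not called (-0.22) and *Ftl1*, the light chain, rose (0.38).

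Beside *Jak2*, its family members *Jak1* and *Tyk2* had log2 fold changes of 0.05 and 0.33, of which that of *Tyk2* was called. In adducin the member *Add3* fell (-0.22, lost once trends with GC content and length were taken out) by about as much as *Add1* (-0.20), while *Add2* fell further (-1.67).

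Some lists of cell type markers differed between the groups and others did not, and their part in the levels of the members was not tested. Over all genes tested 21.1% were higher and 20.7% lower. Of 8 epithelial markers 7 were higher in *Filip1l* KD tumors, with summed levels of 135816 to 176614 normalized counts in CTL tumors and 193038 to 358900.0 in *Filip1l* KD tumors. Of 5 lung lineage markers listed 2 were higher and 1 lower, with sums of 1910.0 to 2667 and 1750.7 to 2909, and *Nkx2-1* and *Sftpc* had means under 40 normalized counts in both groups. Skeletal muscle markers (7 of 8 higher) summed to 2232 to 12161 and 4996 to 86285, neutrophil markers (5 of 5 higher) to 278 to 352 and 742 to 1153, and endothelial markers (5 of 6 higher) to 3304 to 3996 and 3941 to 6107. Of 7 fibroblast markers 2 were lower (160012 to 260347 and 74885 to 252719.9), of 6 macrophage markers 1 was higher (12529.6 to 17077 and 11019 to 20388), of 4 adipocyte markers listed 2 were higher (194 to 471 and 453 to 907), and the 5 T cell markers were not called (log2 fold changes from -0.03 to 0.33, sums of 456 to 1203 and 504 to 969). Without *Filip1l* KD replicate 1 or without CTL replicate 3, the tumors most often apart from their group for the members named here, 187 and 188 of the 191 lower members were still called lower by limma.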

How the data were processed

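RNA of 12 subcutaneous mTc11 tumors was sequenced. Per the labels and the methods of the study, Trimmomatic 0.36 trimmed the reads, STAR 2.5.2b aligned them (build mm10 in the labels), and unique hits per gene were counted with featureCounts of Subread 1.5.2. The authors deposited these counts divided by each tumor's DESeq2 size factor, a normalized signal that is not corrected for gene length. Replicates were not pooled. The library kit is not stated to keep strand.

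Every value was a whole multiple of the value of 1 read in its tumor (100% within 0.01 of a whole number), so reads per tumor were recovered. A single read was worth 0.865 to 1.49 normalized counts. The depth limits the precision of low values. In 3 tumors that value lay within 1% of 1, but at most 0.472% of a tumor's values were integers.

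Positions and types came from GENCODE vM21 (GRCm38), in which 15661 of 15687 identifiers (99.8%) were found. The comparison of both groups used limma 3.58.1 (R 4.3.3) on log2(value + 1) with a mean-variance trend, without covariates, and Benjamini-Hochberg adjustment over 15687 genes at 0.05. A filter at a mean of 5 removed 0 genes, since the lowest mean was 9.28. Fold changes are on the log2(value + 1) scale. The chromosome shift was the median over genes averaging 50 or more, per chromosome with at least 20 such genes. The labels give no batch or date. They call the tumors biological replicates. The number of separate transductions behind the tumors of a group is not stated. The adjusted p values and separated ranges thus measure spread between tumors, not between independently transduced cells.

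The members, the complexes, the role groups and the marker lists were chosen with earlier results of these data known. Genes are named if they are the target, the 10 highest, 10 lowest and 10 most abundant members, up to 12 members above and 5 below the chromosome shift, members of complexes, 2 to 4 abundant members of each role group, genes at the threshold, markers, or Jak2. A few genes that this rule names, and 1 complex that rests on them, are not reported here. Neighbours of named genes, and further members named with their role groups, were added after their values were seen. Alternatives covered pseudocounts, filters, scalings, trend, replicate block, GC content and length, edgeR 4.0.16 quasi-likelihood on recovered reads, member rules and leaving out each tumor. The steps were tested on simulated data. Same-numbered tumors did not deviate together (correlations of -0.269 to 0.0990).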

Additional observations from a re-analysis of the deposited data

Results flagged for a closer look

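In 10 of 174 groups of 6 tumors checked, the highest or lowest tumor stood apart from the others by more than Dixon's 95% critical value, and chance flags about 1 in 20 groups. The median of the members was -0.0381 in CTL replicate 6, against 0.00081 to 0.0229 in the other CTL tumors, far from the -0.43 to -0.37 of the *Filip1l* KD tumors. *Filip1l* KD replicate 1 was the tumor apart for 3 genes. It had 3686 normalized counts of *Zfand5* (2610.4 to 2916 in the other 5), 2515 of *Unc93b1* (1493 to 1851) and 1615 of *Esrra* (2116 to 2355). For *Zfand5* this tumor lay nearest to the CTL level.

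CTL replicate 3 was apart for 3 genes. Its normalized counts were 856 of *Vldlr* (1604 to 1949 in the other CTL tumors), 1715 of *Il33* (2448 to 2854) and 1935 of *Vps51* (1579.5 to 1704). The remaining 3 tumors apart were *Filip1l* KD replicate 5 for *Sf1* (5543, others 5145 to 5286), *Filip1l* KD replicate 2 for *Polr2g* (1225, others 967 to 1060.1) and *Filip1l* KD replicate 3 for *Smarca2* (1785, others 2035 to 2129). What set these tumors apart was not tested.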

How the results depend on the processing

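The direction of the members as a group did not depend on the settings tried. Across 12 fits without 1 tumor each, members called lower numbered 187 to 192, members called higher 9 to 10, members above the chromosome shift 42 to 56 and below it 62 to 76, partners lower 40 to 48 and partners higher 22 to 35, and the median was -0.42 to -0.39. With replicate number as a block, the 188 members called lower were all among the 191, and 10 were higher, 45 above and 64 below the shift, with 38 partners lower and 25 higher. Tumors share only a number, so the block is no pairing. edgeR on recovered reads called 3364 genes lower and 3262 higher over all genes, including the 191 members. Rescaling to the same total moved the members' median to -0.44, and the split over all genes to 3667 lower and 2940.0 higher. A CTL mean of at least 2000 left 142 members, of which 115 were lower, 2 higher, 29 above and 44 below the shift, with a median of -0.43. A *Filip1l* KD mean of at least 1000 gave 205 genes and a median of -0.34. With an absolute log2 fold change over 1, the lower and higher members were 10 and 1.

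Of 1978 fits of 86 named genes under 23 alternatives, 1928 kept direction and call, 34 lost the call, 6 gained it and 10 changed sign, and 70 genes kept both in every fit. With GC content and length trends removed, the sign changed for *Tm9sf3* (0.14), *Mpeg1* (0.0051), *Ifit3* (-0.0036) and *Cox8a* (-0.16, then called lower). *Tm9sf3* ran from -0.10 to 0.036 and *Mpeg1* from -0.21 to 0.036 when single tumors were left out, both without a call. Depth did not limit any member, the shallowest tumor holding 17834745 reads.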
